A study of Mus musculus with 8 samples.

Results

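The cytosolic ribosomal protein genes were described in the hypothalamus of male mice with and without a disrupted Bgn gene. They were taken as every probe whose annotated symbol begins with Rpl or Rps and a digit, begins with Rplp, or is Rpsa, without the S6 kinases, binding proteins and pseudogenes that share those letters. A probe was kept where 4 or more of the 8 arrays gave it a detection p-value under 0.05. Of 83 annotated probes (65 genes) 69 passed, and these stand for 58 genes among 9782 genes and 14190 probes tested in all. The array holds 41 passing probes of the large subunit (33 genes), 26 of the small subunit with Rpsa (23 genes) and 2 of the P stalk (Rplp0 and Rplp1).

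The arrays hold total RNA of 4 Bgn_KO and 4 WT hypothalami from male mice aged 13 weeks on a C57BL/6 background, with free access to a rodent diet. Bgn encodes biglycan, a matrix proteoglycan; the allele and its breeding are not described in the labels. The comparison asks how hypothalamic transcripts differ between these genotypes. Values below are log2 of background-corrected, quantile-normalized signal, differences are Bgn_KO minus WT, and a call is a limma adjusted p under 0.05 over all tested probes.

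Each ribosome is built from a small subunit that reads the mRNA and a large subunit that joins amino acids, each with many proteins bound to ribosomal RNA. The P stalk, formed by Rplp0, Rplp1 and Rplp2, recruits the elongation factors. In mammals ribosomal protein mRNAs carry a 5′ terminal oligopyrimidine (TOP) element, a C at the transcript's start followed by a run of C and T, through which mTOR and LARP1 control their translation. In neurons they are among the abundant mRNAs, and some are also found in axons and dendrites. Because these genes have many processed pseudogenes and short, conserved mRNAs, a probe may also bind the RNA of near-identical copies, so each value is that of a probe.

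The start regions are printed to show the TOP element, which was looked for at the listed starts. Rps6, Rps27, Rpl35 and Rpl38 are among the 9 genes that have it there. Beside them stand members whose listed start lacks it: Rps3a1, the called gene, and Rps3, Rpl13a and Rpl3l, which are described below. Each line gives the 25 bases before the RefSeq start and the 20 that follow it, in GRCm38.p6. Capitals mark a run of C and T that starts, with C, at the first transcribed base.
Rps6: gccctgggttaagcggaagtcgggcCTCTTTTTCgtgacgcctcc
Rps27: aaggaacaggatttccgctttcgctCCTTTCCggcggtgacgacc
Rpl35: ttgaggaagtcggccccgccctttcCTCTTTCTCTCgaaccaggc
Rpl38: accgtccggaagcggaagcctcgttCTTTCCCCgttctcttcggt
Rps3a1: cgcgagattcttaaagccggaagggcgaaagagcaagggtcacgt
Rps3: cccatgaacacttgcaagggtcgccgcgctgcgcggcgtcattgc
Rpl13a: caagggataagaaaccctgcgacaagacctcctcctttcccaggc
Rpl3l: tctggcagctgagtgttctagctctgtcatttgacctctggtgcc
These windows lie at chr4:86857348-86857392, minus strand, chr3:90213629-90213673, minus strand, chr2:39005112-39005156, minus strand and chr11:114668555-114668599, plus strand. The others lie at chr3:86142649-86142693, minus strand, chr7:99483690-99483734, minus strand, chr7:45128726-45128770, minus strand and chr17:24727801-24727845, plus strand, the last being the one of 2 listed starts that comes first in the table.

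Of the 58 measured genes 50 had an entry in the promoter table, with 61 listed starts. A C followed by at least 4 bases that are each C or T stood exactly at 9 of these starts (14.8%), in Rpl28, Rpl35, Rpl35a, Rpl38, Rps10, Rps15a, Rps21, Rps27 and Rps6, against 2.51% of the 32851 starts of all genes. Within 10 bases of the start such a run occurred at 50.8% of their starts and at 30.7% of all. Rpl13a and Rpl3l are among the genes with a run at that distance. The printed start of Rps3a1 does not begin with this run, and no match says only that these letters are not at the start RefSeq lists. Within the 300 bases of each window, read on both strands, CCGGAA, the core bound by ETS factors, was in 42.6% of the ribosomal protein windows against 14.9% of all, and AANATGGCG in 14.8% against 2.38%. Of the genes printed above, Rps6, Rps27, Rpl35, Rpl38, Rps3a1 and Rps3 have CCGGAA in that window. GGGCGG was in 62.3% against 35.7%, and TATAAA in 9.84% against 13.6%. CCGGAA and its reverse complement can overlap in 1 stretch, and each window was counted once per motif. The windows of 67 mitochondrial ribosomal protein genes had the TOP run at 0 of 73 starts and CCGGAA in 57.5%.

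As a check of the labels, the probe of Bgn was at 8.94, 9.01, 8.99 and 8.79 on the Bgn_KO arrays and at 8.86, 10.44, 10.14 and 9.53 on the WT arrays, a difference of -0.81 (limma adjusted p = 0.390). For this probe the array labelled WT replicate 1 goes against its label, being no higher than the Bgn_KO arrays, and without it the difference of Bgn was -1.10 (limma adjusted p = 0.0893). Of the named genes below, those with a difference over 0.2 in size that moves by over 1.5 times without this array are given both ways. The log2 summed signal of 7 measured meningeal fibroblast genes was 13.36, 14.81, 14.54 and 13.84 on the WT arrays, the order that Bgn had there. On the Bgn_KO arrays it was 13.91, 13.31, 12.95 and 14.48. The part of such tissue in the Bgn values was not tested. Markers of hypothalamic neurons were present: 13 of 15 genes on the array had a detected probe, with Crh and Sim1 below that limit. Each array had from 13820 to 14502 probes with a detection p-value under 0.05, and the number of arrays limits the precision.

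Most ribosomal protein probes were bright. Of the 69, 43 lay in the brightest 5% of tested probes by mean signal and 66 were detected on all 8 arrays. Their part of the summed deposited signal was 3.39% ± 0.17 on the Bgn_KO arrays and 3.35% ± 0.11 on the WT arrays (SD, n = 4 each), and the groups overlapped. The brightest probe signals were those of Rpl41, which encodes a very small basic protein, Rplp1 and Rpl38, a protein whose loss in mice disturbs the patterning of the axial skeleton. Rpl41 was at 15.13, 15.11, 15.11 and 15.13 on the Bgn_KO arrays and at 15.13, 15.10, 15.17 and 15.06 on the WT arrays. Brightness differs between probes for reasons of sequence as well as of amount, so no ranking of transcripts is drawn from it. The deposited signal of the brightest member was between 34052 and 39756 on the arrays, close to the highest signal of any probe (35105 to 41119). On WT replicate 1 the brightest member was itself the highest probe (39756). Whether differences between signals this near the top are compressed was not tested.

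**Figure D1:**
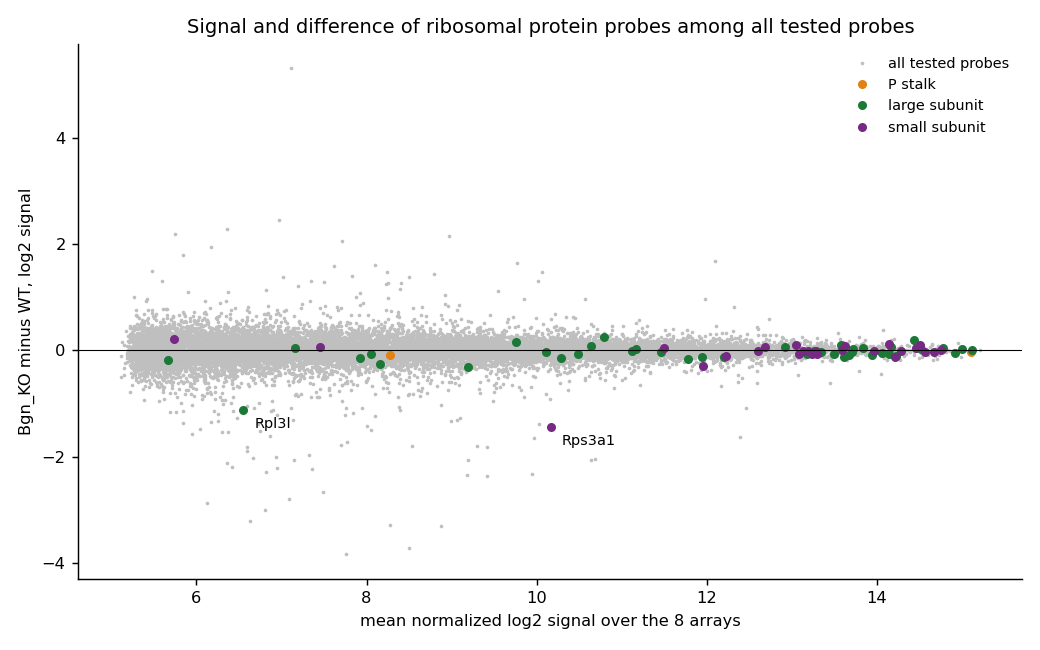
Mean normalized log2 signal over the 8 arrays (horizontal) and difference between Bgn_KO and WT on the log2 scale (vertical) for all 14190 tested probes in grey, with ribosomal protein probes coloured by subunit. Of the 69 coloured probes 43 lie in the brightest 5% and close to 0, while Rps3a1 (-1.44) and Rpl3l (-1.13) lie well below.

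At the detection limit, the members just inside were dim probes of Rpsa, Rpl27a and Rpl3l, each detected on 7 arrays. The Rpsa probe had deposited signals between 172 and 226. Just outside were probes of Rpl37 and Rps19, detected on 3 arrays, with signals of 162 to 210 and 170 to 209. Brighter probes of Rpl27a, Rpl37 and Rps19 passed. The 14 probes that did not pass left 7 genes with no measured probe: the ribosomal protein genes Rpl6, Rpl14, Rpl17, Rplp2 and Rps23, the Rpl39 paralog Rpl39l and Rps23rg1, a gene derived from Rps23.

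Of the 69 probes 1 was called, that of Rps3a1, which fell. That is 1.45%, against 0.507% called among all tested probes and 0.282% called lower, and it rests on a single probe. At an unadjusted p under 0.05 there were 3 probes (4.35%, against 10.2% of all tested probes), and the arrays of the groups did not overlap for 3 (4.35%, against 6.15%). Of these 3, Rpl13a was higher (3.2% of all tested probes were separated that way) and Rps3a1 and Rpl35 were lower (2.95%). Of the 69 differences 26 were above 0 (37.7%) and 43 below, against 7491 above and 6699 below over all tested probes (52.8% above). The median was -0.02 on the log2 scale, against 0.01 over all tested probes.

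**Figure D2:**
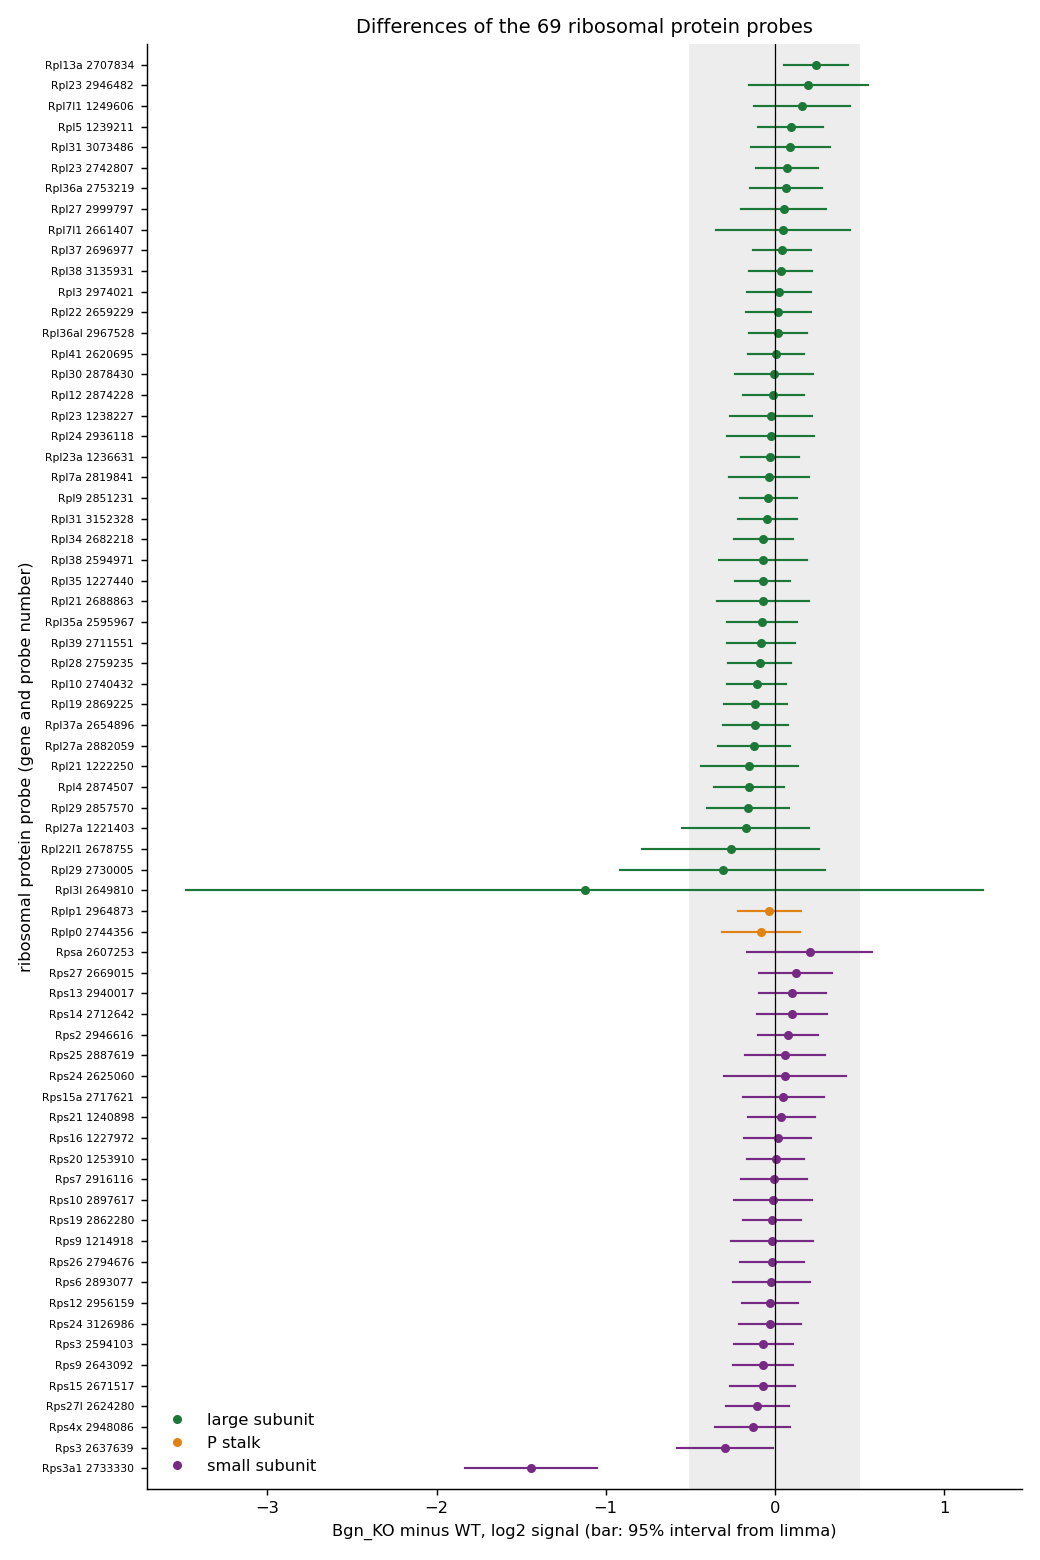
Difference between Bgn_KO and WT on the log2 scale for each of the 69 ribosomal protein probes, named by gene and probe number, with the 95% interval from limma as a bar; the grey band spans 0.5 on either side of 0. For 61 probes the interval lies inside the band, and for Rps3a1 it lies wholly below it.

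The differences were also small against what the arrays could resolve. The median size of a difference, whatever its sign, was 0.07 (0.11 over all tested probes), and the median standard error was 0.09 (0.13). For 61 of the 69 probes (88.4%) the whole 95% interval of the difference lay within 0.5 of 0 on the log2 scale, against 64.0% of all tested probes. The 8 others include Rps3a1, 1 probe each of Rpl27a, Rpl29, Rpl23 and Rps3, and the probes of Rpl22l1, Rpl3l and Rpsa. Only Rps3a1, Rps3 and Rpl13a had an interval that left out 0. The median log2 signal was 13.24 for ribosomal protein probes and 8.37 for all tested probes. Counting the brightest probe of each gene, the interval lay within 0.5 of 0 for 91.4% of ribosomal protein genes and 66.5% of all. In the related lists described below the share was 91.5% for mitochondrial ribosomal proteins, 89.2% for biogenesis and 88.9% for elongation factors. It was 88% for initiation factors, 100% for other TOP transcripts and 64.3% for the mTOR and S6 kinase list.

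Rps3a1 encodes a protein of the small subunit that sits where the mRNA leaves the ribosome. Its single annotated probe, ILMN_2733330, was at 9.27, 9.45, 9.68 and 9.40 on the Bgn_KO arrays and at 10.77, 10.63, 10.75 and 11.41 on the WT arrays. Every Bgn_KO array was below every WT array, and the array labelled WT replicate 1 was among the WT arrays for this probe. In the deposited signal, before any scaling, the Bgn_KO arrays were between 716 and 907 and the WT arrays between 1626 and 2992.

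The log2 difference was -1.44 (SE 0.17, 95% interval -1.83 to -1.05), a 2.72-fold lower signal. It passed the test (limma adjusted p = 0.00654, lower on 4 of 4 arrays), and an exact two-sided permutation of the 8 arrays gave p = 0.0286, the smallest that 4 against 4 allows. Among the 40 probes called lower over the whole array it ranked 18 by size. Leaving out the array labelled WT replicate 1 gave -1.48 (limma adjusted p = 0.0286), and without WT replicate 4, the highest array, it was -1.27 (limma adjusted p = 0.00318). Without both replicates 4 it was -1.25 (limma adjusted p = 0.0110). With the replicate number as a block it was -1.44 and was not called (limma adjusted p = 0.0536). The labels do not say that a number pairs animals.

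The gene lies on chromosome 3 in the GRCm38.p6 annotation, and its nearest tested genes there are Gatb and Lrba. The 15 tested probes of the 5 nearest tested genes on each side had differences from -0.69 to 0.77, 11 above 0 and 4 below, and 0 passed the limma test. Of the 15, 2 had groups that did not overlap (13.3%, against 6.15% of all tested probes) and 4 had an unadjusted p under 0.05 (26.7%, against 10.2%). The lowest was Cd1d1, which presents lipids to T cells (-0.69, limma adjusted p = 0.0700). The difference was -0.02 for Lrba and between -0.18 and 0.33 for the 4 probes of Gatb, which helps charge mitochondrial glutamine tRNA.

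Summed marker levels of 3 cell type lists did not overlap between the same groups, although 0 of their genes passed the limma test. Those of astrocytes, oligodendrocyte precursors, endothelium, pericytes and smooth muscle, ependyma and tanycytes and meningeal fibroblasts overlapped. So did those of choroid plexus, fast skeletal muscle, cortical and forebrain neurons, hypothalamic neurons, pituitary and blood cells. The log2 summed signal of 4 measured cortical and forebrain genes was 11.47, 11.54, 11.27 and 13.59 on the Bgn_KO arrays and 11.70 to 11.99 in WT. That of the hypothalamic neuron genes was 16.55, 16.44, 16.55 and 16.21 on the Bgn_KO arrays and 16.51 to 16.61 in WT. Bgn_KO replicate 4 was thus highest in the first list and lowest in the second. Over all tested genes 9.75% had an unadjusted p under 0.05. Of 10 measured oligodendrocyte genes 9 had differences below 0 (7 of the 10 at an unadjusted p under 0.05), and the log2 of their summed signal was 15.77 to 15.95 in Bgn_KO and 15.999 to 16.31 in WT, with Ermn below the detection limit. Of 12 measured genes of microglia and macrophages 11 had differences below 0 (6 of the 12 at an unadjusted p under 0.05), with summed levels of 11.81 to 12.24 in Bgn_KO and 12.31 to 12.65 in WT and with Itgam below the limit. Of 9 measured neuron genes 6 had differences above 0 (1 of the 9 at an unadjusted p under 0.05). Their summed levels were 16.39 to 16.45 in Bgn_KO and 16.27 to 16.33 in WT, with Snap25, Nefl and Gad2 below the limit. Their mean deviation from each gene's own mean overlapped between the groups (-0.06 to 0.18 in Bgn_KO, -0.10 to -0.003 in WT). By that measure the astrocyte list, whose summed levels overlapped, did not overlap (-0.08 to -0.05 in Bgn_KO, -0.01 to 0.14 in WT). Of its 11 measured genes 8 had differences below 0 (3 of the 11 at an unadjusted p under 0.05). Of 13 measured hypothalamic neuron genes 2 had differences above 0 and 11 below (2 of the 13 at an unadjusted p under 0.05). In whole tissue, fewer cells of a type and less RNA per cell cannot be told apart. The part of these lists in the value of Rps3a1 was not tested.

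**Figure D3:**
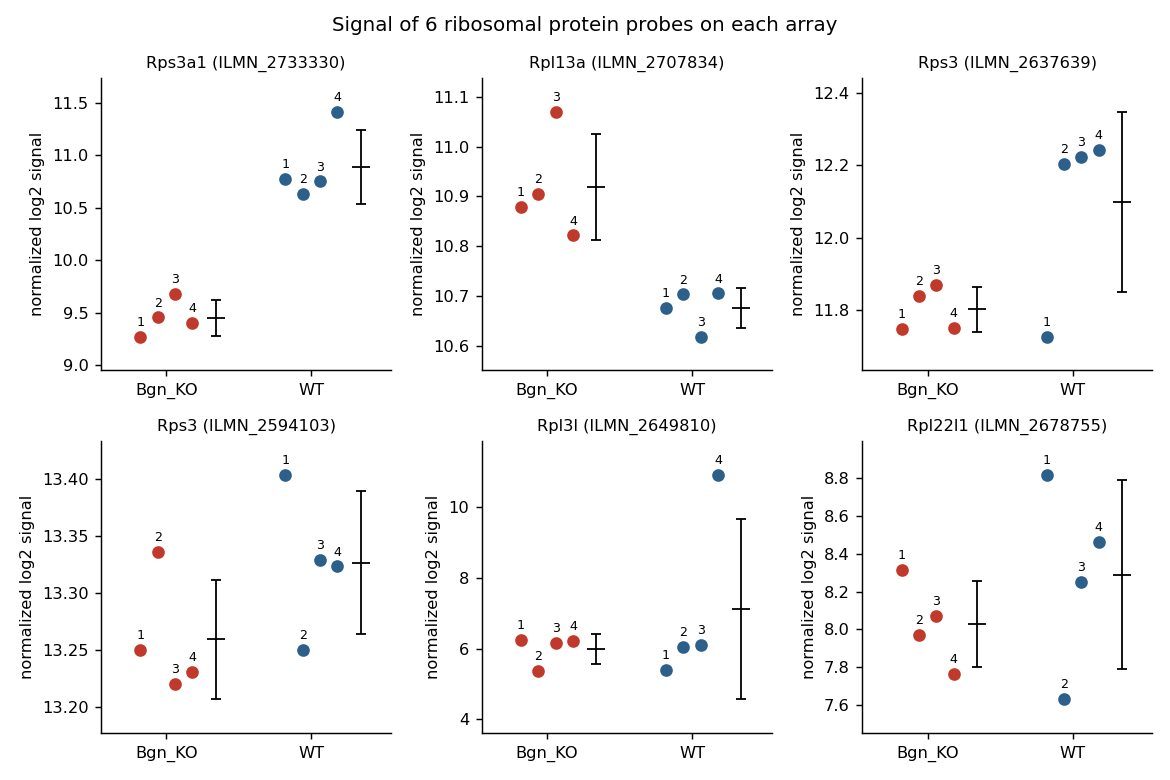
Normalized log2 signal (vertical, a separate scale in each panel) of 6 ribosomal protein probes on the Bgn_KO and WT arrays; digits are replicate numbers and the bar is the mean with its SD (n = 4). Rps3a1 and Rpl13a do not overlap between the groups, WT replicate 1 stands apart from the other WT arrays for ILMN_2637639 of Rps3, and WT replicate 4 for Rpl3l.

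Rps3, whose protein helps form the channel through which the mRNA enters, was measured by a pair of probes. The probe ILMN_2637639 was at 11.75, 11.84, 11.87 and 11.75 on the Bgn_KO arrays and at 11.73, 12.20, 12.22 and 12.24 on the WT arrays. The array labelled WT replicate 1 was thus with the Bgn_KO arrays, as it was for Bgn. The difference was -0.30 (SE 0.13, limma adjusted p = 0.475) and without that array -0.42 (limma adjusted p = 0.0973), neither past the threshold. The other Rps3 probe, ILMN_2594103, was at 13.25, 13.34, 13.22 and 13.23 against 13.40, 13.25, 13.33 and 13.32, and differed by -0.07 (95% interval -0.24 to 0.11).

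Among the other small subunit probes the median difference of the whole class was -0.01, with 11 above 0 and 15 below. Rpsa, also known as the laminin receptor precursor, was measured by a dim probe and differed by 0.21 (95% interval -0.16 to 0.58). Rps27 differed by 0.12, Rps13 by 0.10, Rps2, which shapes the mRNA entry site, by 0.08 and Rps14, whose human counterpart is lost in the 5q- syndrome, by 0.10. Rps4x, which is X-linked like Bgn, differed by -0.13 and Rps9 by -0.07 (ILMN_2643092) and -0.02 (ILMN_1214918). None of these 95% intervals left out 0. Rps6, the S6 kinase target, differed by -0.02 (95% interval -0.25 to 0.21), and Rps19, the gene most often mutated in human Diamond-Blackfan anaemia, by -0.02.

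Rpl13a, a large subunit protein that in human myeloid cells can leave the ribosome to silence inflammatory mRNAs, was the member with the largest positive difference. It was at 10.88, 10.91, 11.07 and 10.82 on the Bgn_KO arrays and at 10.68, 10.70, 10.62 and 10.70 on the WT arrays, so that the groups did not overlap. The difference was 0.24 (SE 0.08, 95% interval 0.05 to 0.43), with an exact permutation p of 0.0286, but it did not pass over all probes (limma adjusted p = 0.367). Rpl35, which lies by the exit of the nascent chain, had the tightest separation: 14.13, 14.07, 14.09 and 14.13 against 14.18, 14.17, 14.18 and 14.19. That difference was -0.07 (limma adjusted p = 0.791).

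The large subunit probes as a class had a median of -0.03, with 15 above 0 (36.6%) and 26 below, and 0 passed the test. At an unadjusted p under 0.05 there was 1 (2.44%, against 10.2% of all tested probes). The lower ones with the smallest p were Rpl4 (-0.15), Rpl29 (-0.16, ILMN_2857570), Rpl10, which is needed for a late step of subunit maturation (-0.11), Rpl19 (-0.11) and Rpl37a (-0.12). The higher ones were Rpl23 (0.20, ILMN_2946482), Rpl7l1, a relative of Rpl7 (0.16, ILMN_1249606), Rpl5, which binds the 5S RNA and can restrain Mdm2 (0.10), and Rpl31 (0.09, ILMN_3073486). Their limma adjusted p-values were between 0.615 and 0.821. In the P stalk Rplp0 differed by -0.08 (95% interval -0.31 to 0.15) and Rplp1 by -0.03 (-0.22 to 0.15).

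Of the 69 probes 4 belong to X-linked genes. Rpl10 was at 14.17, 14.22, 14.13 and 14.17 on the Bgn_KO arrays and at 14.33, 14.33, 14.21 and 14.25 on the WT arrays, so that the highest Bgn_KO array just passed the lowest WT array. Rpl39 differed by -0.08 and Rpl36a by 0.07. With Rps4x, 3 of the 4 were below 0, and 0 passed the test.

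In all, 4 pairs of paralogs were measured, each a ribosomal protein gene and a relative of it. Rpl3, close to the peptidyl transferase centre, differed by 0.02, while Rpl3l, its counterpart in striated muscle, was at 6.23, 5.36, 6.15 and 6.21 on the Bgn_KO arrays and at 5.39, 6.05, 6.11 and 10.90 on the WT arrays. A single array, WT replicate 4, held the signal: the difference was -1.13 (SE 1.04, limma adjusted p = 0.765) and 0.14 without that array (limma adjusted p = 0.951). It was -1.70 without WT replicate 1 (limma adjusted p = 0.600). Fast muscle genes stood high on the same array. The log2 summed signal of the 4 measured ones of 9 on the array was 15.86 there, 11.89 to 12.40 over the rest of WT and 11.81 to 12.37 over Bgn_KO, with Myh4, Ckm, Mylpf, Tnnt3 and Tnnc2 below the detection limit of 4 arrays. Acta1, skeletal actin, was at 13.77 there and between 8.47 and 9.33 elsewhere, and the part of muscle tissue in the Rpl3l value was not tested.

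Rpl22l1, the paralog of Rpl22, was among the more variable members, with 8.31, 7.97, 8.07 and 7.77 on the Bgn_KO arrays and 8.82, 7.63, 8.25 and 8.46 on the WT arrays. It differed by -0.26 (95% interval -0.78 to 0.26), by -0.08 without WT replicate 1 and by -0.48 without WT replicate 2. Rpl22 differed by 0.02 (-0.17 to 0.21). Rps27 and Rps27l differed by 0.12 and -0.10, and Rpl36a and Rpl36al by 0.07 and 0.02. None of these passed the test.

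In all, 10 genes were measured by more than 1 probe, which shows how far a value depends on the probe. In Rpl21, Rpl27a, Rpl29, Rpl7l1, Rps3 and Rps9 the probes had differences of the same sign, and in Rpl23, Rpl31, Rpl38 and Rps24 of both signs. The range within a gene went from 0.05 (Rpl27a) to 0.23 (Rps3), and 0 of these probes passed the test (1 at an unadjusted p under 0.05). For Rpl29 the probe ILMN_2730005 was at 9.43, 9.71, 8.41 and 8.61 on the Bgn_KO arrays, so that 2 of these stood lower, and at 9.18, 9.35, 9.46 and 9.40 on the WT arrays. Its partner ILMN_2857570 was also lowest on those same arrays (11.55 and 11.54, against 11.81 and 11.92), by much less. Of the Rpl23 probes ILMN_2946482 ranged from 14.22 to 14.89 on the Bgn_KO arrays and ILMN_2742807 from 14.10 to 14.24.

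Per array, the median deviation of the 69 probes from each probe's own mean was 0.01, -0.01, 0.02 and -0.05 on the Bgn_KO arrays and -0.01, 0.00, 0.04 and 0.00 on the WT arrays. The mean was -0.01 ± 0.03 in Bgn_KO and 0.01 ± 0.02 in WT (SD, n = 4 each), and the groups overlapped. Bgn_KO replicate 4 was lowest over all 69 probes and for the large subunit, while for the small subunit WT replicate 1 was lowest (-0.06, against -0.05 on Bgn_KO replicate 4). The median SD within the groups was 0.09 for ribosomal protein probes and 0.19 for all tested probes, which cover much dimmer signals.

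**Figure D4:**
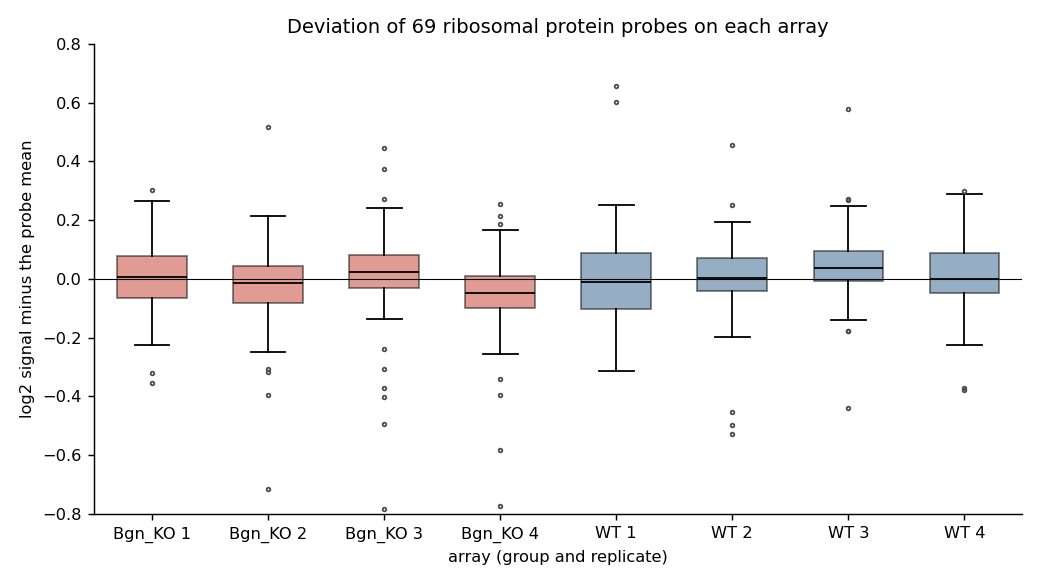
Normalized log2 signal minus the probe's mean over the 8 arrays (vertical) for the 69 ribosomal protein probes on each array (horizontal); boxes span the quartiles with the median as a line, whiskers reach 1.5 box lengths, and 5 values of Rps3a1 and Rpl3l lie beyond the axis. The box medians lie between -0.05 and 0.04.

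Genes that make, use or regulate ribosomes were taken from lists of the same pathway. Counting the brightest probe of each gene, 0 of 9 genes in the elongation factor list and 0 of 25 initiation factor genes passed the limma test. Of 37 ribosome biogenesis genes and of 14 genes of the mTOR and S6 kinase pathway, 0 passed it as well. In these lists 0, 1, 1 and 1 genes had an unadjusted p under 0.05, against 9.75% of all tested genes. Their median log2 differences were 0.01, -0.01, 0.00 and 0.05, against 0.01 over all tested genes. Of other transcripts with a TOP element 9 of 14 had differences above 0 and 5 below, with a median of 0.01. Some elongation and initiation factor genes are on that list as well.

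In the elongation factor list Eef2, which moves the ribosome along the mRNA, differed by 0.13 and Eef1b2 by -0.16. Eef1d differed by -0.12, Eef1e1 by -0.18 and the selenocysteine factor Eefsec by -0.22. Among initiation factors the cap-binding protein Eif4e differed by -0.26, its relative Eif4e2 by -0.21, Eif2s3x, a subunit of the factor that brings the initiator tRNA, by -0.23, and Eif2b1, which recharges that factor, by 0.18. Naca, which binds nascent chains, differed by -0.14. Biogenesis factors were represented by Nolc1 (0.31), the rRNA methyltransferase Nop2 (-0.24), the GTPase Lsg1 (0.17) and the U3 particle protein Rrp9 (0.18). None of these values passed the test (limma adjusted p between 0.445 and 0.687). Without the array labelled WT replicate 1 Eif2s3x was at -0.10, Eif4e at -0.17 and Eefsec at -0.33. The probes of Eefsec and Nolc1 were dim, with deposited signals of 177 to 227 and 201 to 237.

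In the mTOR and S6 kinase list, some of whose genes regulate the translation of ribosomal protein mRNAs, differences ran from -0.47 to 0.45. Rptor, Rps6kb2, Eif4ebp3, Larp4, Myc and Mycn were on the array but below the detection limit. The 14 measured genes include Rps6ka3 and Rps6ka5 but neither Larp1 nor Rps6kb1. Ddit4, a stress-induced inhibitor of mTOR, was at 10.32, 10.33, 10.29 and 10.88 on the Bgn_KO arrays and at 10.05, 10.07, 9.71 and 10.18 on the WT arrays, which did not overlap. It differed by 0.45 (SE 0.16, limma adjusted p = 0.370). Eif4ebp1, the translation repressor that mTOR inactivates, differed by -0.47 (SE 0.25). Pdcd4, an inhibitor of the helicase Eif4a, differed by 0.36 and Tsc1, part of the complex that restrains mTOR, by 0.25. The Tsc1 probe was dim, detected on 5 arrays, with deposited signals of 170 to 209. None of the named genes of this list passed the test (limma adjusted p between 0.370 and 0.571).

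**Figure D5:**
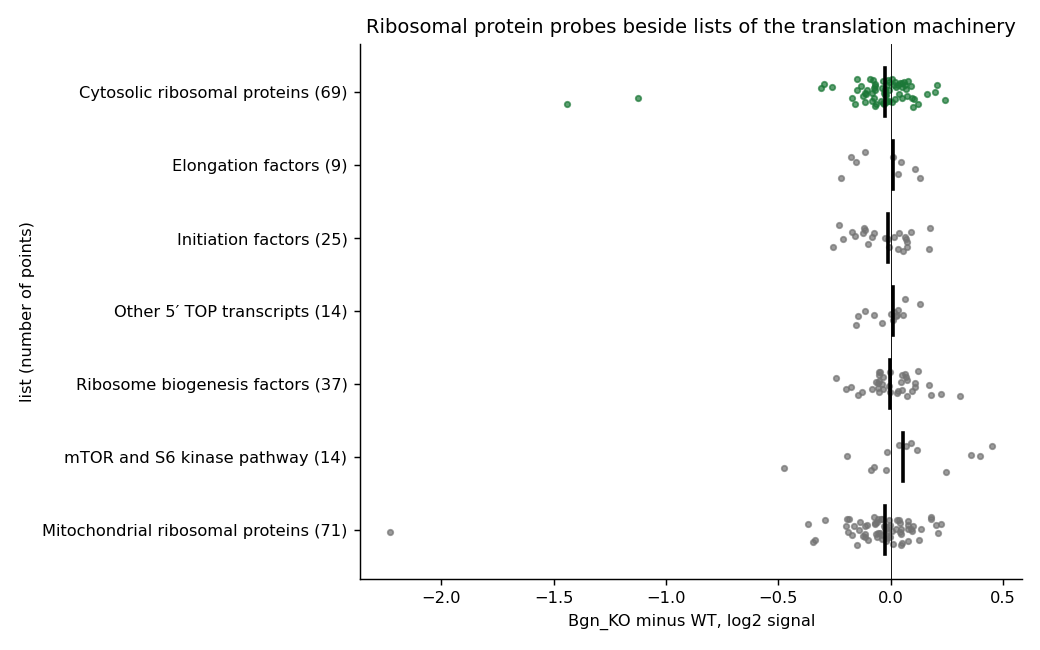
Difference between Bgn_KO and WT on the log2 scale (horizontal) for the 69 cytosolic ribosomal protein probes in green and for the brightest probe of each gene in 6 lists in grey, with the median of each list as a black bar. The medians lie between -0.03 and 0.05, and Rps3a1 and the mitochondrial Mrps27 (-2.23) are the called values.

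The mitochondrial ribosome, whose proteins are encoded by other genes, was measured for comparison. Of 71 measured genes 25 had differences above 0 (35.2%, against 51.9% of all tested genes) and 46 below, with a median of -0.03, and 1 passed the limma test, Mrps27 (-2.23, SE 0.11, limma adjusted p = 3.44e-05). Mrps15 (-0.34), Mrps35 (-0.34) and Mrps7 (-0.19) did not pass. At an unadjusted p under 0.05 there were 5 of the 71 (7.04%, against 9.75% of all tested genes). Over all tested genes 49 of 9782 were called.

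By the listed starts, the 10 probes of the 9 genes with a TOP run exactly there had differences from -0.09 to 0.12 with a median of -0.02 (4 above 0 and 6 below). The 49 probes of the 41 other matched genes had a median of -0.02, 19 above 0 and 30 below, and a range from -1.44 (Rps3a1) to 0.24 (Rpl13a). Some of these other genes, among them Rpl13a, have such a run within 10 bases of a listed start. The split therefore follows the listed starts and does not sort the genes by whether their mRNA has the element. The difference between these sets of probes was not tested.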

How the data were processed

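RNA of 8 hypothalami was hybridized to Illumina bead arrays. The deposited table gives a signal intensity per probe and array, not normalized per the file headers, next to deposited detection p-values. The authors' processed intensities are linear; lumi 2.10.0 and R 2.15.0 are named for them, per the submitters' processing notes, with the method not given in the sources used here. A letter in each sample's description assigned the columns.

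Background was removed by normexp in limma 3.58.1 (R 4.3.3), using detection p-values to place it and an offset of 16. After quantile normalization, log2 values of 14190 probes were fitted with moderated variances, adjusted by Benjamini-Hochberg and called at 0.05. Exact permutation p-values use all 70 splits of the arrays. The fit was tested on simulated data. Background correction can widen differences of dim probes, and quantile normalization removes shifts shared by all probes.

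Symbols are those of the platform annotation. All 69 ribosomal protein probes were matched by Entrez ID to GRCm38.p6, and start sequences are RefSeq's; since the array files name no build, the annotation gave chromosomes and gene order. The members, lists and tests were chosen with earlier results of these data known.

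Named are called members, up to 5 probes with the smallest p in each direction and class, paralog pairs, the 3 brightest and 3 dimmest members, the 4 genes whose probes differ most, 4 genes per related list, and Bgn. Rpl35, Rpl39, Rps6, Rps19, other probes of named genes, marker genes and the neighbours of Rps3a1 were named after their values were seen. Alternatives were background correction, offset, scaling, the authors' values, filters, probes per gene, array weights, a replicate block, a variance trend and leaving out arrays.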

Additional observations from a re-analysis of the deposited data

Results flagged for a closer look

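Of 120 groups of 4 arrays examined for the probes named, 13 had an array whose gap to the others exceeds Dixon's 95% limit; chance gives about 5%. Among ribosomal protein probes, Rps3 (ILMN_2637639) was at 11.73 on WT replicate 1 and at 12.20 to 12.24 on the other WT arrays. Rps4x was at 14.27 on Bgn_KO replicate 1 (others 14.09 to 14.12), and Rplp0 at 8.52 on WT replicate 4 (others 8.22 to 8.26). Rpl3l was at 10.90 on WT replicate 4 (others 5.39 to 6.11) and at 5.36 on Bgn_KO replicate 2 (others 6.15 to 6.23), near the background. The Rpl23 probe ILMN_2742807 was low on replicate 1 of both groups, at 14.10 in Bgn_KO (others 14.23 to 14.24) and at 14.02 in WT (others 14.16 to 14.17).

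In the related lists, Eefsec was at 5.76 on Bgn_KO replicate 3 (others 5.55 to 5.58) and Nop2 at 8.23 on the same array (others 7.81 to 7.88). Nolc1 was at 5.62 on WT replicate 3 (others 5.93 to 5.95). Ddit4 was at 10.88 on Bgn_KO replicate 4 (others 10.29 to 10.33), and Mrps7 at 11.48 on Bgn_KO replicate 2 (others 11.32 to 11.35). Mrps27 was at 8.23 on WT replicate 1 (others 8.53 to 8.58), far above every Bgn_KO array.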

How the results depend on the processing

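Rps3a1 was the called ribosomal protein gene in 19 of 20 alternatives, the replicate block being the exception. Over the 20 it had a difference between -1.53 and -1.25 and a limma adjusted p between 4.76e-04 and 0.0536. With the replicate number as a block, 26 probes of the whole array and 0 ribosomal protein probes were called, and Rps3a1 had a difference of -1.44 (limma adjusted p = 0.0536). Same-numbered arrays did not deviate together (correlations -0.01, -0.19, 0.01 and 0.10), so the numbers were not taken as pairs. Over all probes 47 were called with a detection p-value under 0.01 on all arrays, 116 with array weights and 42 without both replicates 4, against 72. Ribosomal protein probes with groups that did not overlap numbered 10 of 69 under median scaling, where their median was -0.078 and that of all probes -0.05. They numbered 5 with the authors' values and 5 without both replicates 4, against 3. The share of all tested probes that did not overlap was 6.8%, 6.12% and 14% in these settings, against 6.15%. Leaving out 1 array gave 43 to 76 calls over all probes (43 without WT replicate 4, 44 without WT replicate 3) and 1 ribosomal protein call. It left 4 to 6 of 69 ribosomal protein probes separated (6 without WT replicate 1 or Bgn_KO replicate 2) and a median from -0.04 to -0.01. Of all tested probes 8.13% to 11.8% were then separated (11.8% without WT replicate 1, 9.14% without Bgn_KO replicate 2). A variance trend, added after seeing the data, gave 98 calls, 1 of them a ribosomal protein probe. Without single arrays the dim Rpl29 probe ran from -0.53 to -0.10, Rpl23 (ILMN_2946482) from 0.08 to 0.31 and Rpsa from 0.11 to 0.34. The causes were not tested. Dim probes such as those of Rpsa and Rpl3l lie near the background, which limits them.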
